A study of Mus musculus with 9 samples.

Results

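The cytosolic ribosomal protein genes were followed in cochlear RNA of mice at postnatal day 3. They were taken as the protein-coding genes whose symbol begins with Rpl or Rps and a digit, together with Rplp0, Rplp1, Rplp2 and Rpsa, leaving out the Rps6 kinases and symbols that end in ps and a number. The rule gave 86 of the 51912 genes listed in each wild-type and heterozygous library, 52 of them of the large ribosomal subunit and 34 of the small subunit by symbol. It reads symbols alone and so also took Rps19bp1, which encodes a protein that binds Rps19, and Rpl7l1, a relative of Rpl7. The libraries, 3 per genotype, are called here WT for Pou4f3(+/+), HET for Pou4f3(Δ/+) and HOM for Pou4f3(Δ/Δ). Pou4f3 encodes a DNA-binding regulator that auditory hair cells need for their maturation and survival. Neither the strain nor the extent of the Δ allele is stated in the labels. The series' text calls the wild types littermates. In each of the 9 samples the genotype entry names another genotype than the title does: WT where the title has HET, HET where it has HOM, and HOM where it has WT. Groups follow the titles, and each direction given between groups rests on them. Nothing says that the libraries of a group came from separate animals, so p-values measure only the spread between these libraries.

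The cytosolic ribosome translates nuclear-encoded mRNA. Its small subunit reads the mRNA, its large subunit joins the amino acids, and each ribosomal protein is needed in roughly equal numbers of copies. Most ribosomal protein mRNAs of mammals begin with a terminal oligopyrimidine (TOP) tract, a C followed by a run of pyrimidines, through which mTOR signalling and the RNA-binding protein Larp1 set their translation. These short and abundant mRNAs have also left many processed pseudogenes, reverse-transcribed copies inserted elsewhere in the genome, so that a read can match several places. Most of these genes are active in every cell type, in the cochlea as in other tissues, while a few are forms of particular tissues such as muscle or testis.

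Stretches of 3 ribosomal protein genes are shown beside the same stretch of copies with a high FPKM, because these genes varied most between libraries and the levels of such copies are set beside theirs further on. They are not always the copies that share most sequence with the gene. They are 60 coding bases each, from GENCODE M21 on GRCm38, written in the sense of the transcript, and capitals mark the bases at which gene and copy differ. Rps18 lies on chromosome 17 from 33951999 to 33956001 on the minus strand, and coding bases 122 to 181 are shown with its copies Gm11361 (chromosome 13, 28257528 to 28258134, plus strand) and Rps18-ps3 (chromosome 8, 107262793 to 107263248, minus strand).
Rps18: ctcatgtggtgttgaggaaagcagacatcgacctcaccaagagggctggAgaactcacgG
Gm11361: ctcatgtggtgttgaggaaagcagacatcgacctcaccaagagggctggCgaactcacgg
Rps18-ps3: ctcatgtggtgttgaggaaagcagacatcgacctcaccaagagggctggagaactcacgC
Over the whole coding sequence of Rps18 (456 bases), each copy differed at 3 bases (99.34% identity).

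Rpl29 lies on chromosome 9 from 106429454 to 106431568 on the plus strand, and coding bases 13 to 72 are shown with the copies Gm13841 (chromosome 5, 115801677 to 115802159, minus strand) and Gm8210 (chromosome 1, 43189156 to 43189638, plus strand).
Rpl29: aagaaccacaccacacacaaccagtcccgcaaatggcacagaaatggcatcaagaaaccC
Gm13841: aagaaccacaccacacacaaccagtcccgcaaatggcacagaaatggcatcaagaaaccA
Gm8210: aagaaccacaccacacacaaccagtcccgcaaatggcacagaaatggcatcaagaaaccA
Each of these copies differed from the 480 coding bases of Rpl29 at 3 bases (99.38% identity). Rps2 lies on chromosome 17 from 24718116 to 24721929 on the plus strand, and coding bases 25 to 84 are shown with Rps2-ps13 (chromosome X, 52898588 to 52899469, plus strand).
Rps2: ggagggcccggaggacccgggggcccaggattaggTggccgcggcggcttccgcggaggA
Rps2-ps13: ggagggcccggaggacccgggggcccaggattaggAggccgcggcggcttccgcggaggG
The copy differed at 7 of 879 coding bases (99.2% identity).

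Promoters in RefSeq (GRCm38.p6) were found for 66 ribosomal protein genes, as 78 sequences that run from 250 bases before the annotated start to 50 after it. A pyrimidine tract, searched on the sense strand as a C followed by at least 6 bases that are C or T, within 20 bases before to 30 after the start, was present in 41 of the 78 (52.56%), against 7287 of all 32851 promoters (22.18%). The letters CCGGAAG, the core of an ETS factor motif, were present on either strand in 27 (34.62%), against 8.86% of all promoters. TATAAA, searched in the 50 bases before the start, was present in 1 (1.28%), against 2.63% of all promoters. Tracts of well expressed ribosomal protein genes are shown in capitals, in the 12 bases before and 18 after the annotated start, within promoter windows chr14:24490428-24490727 (plus strand, Rps24), chr9:64173137-64173436 (plus strand, Rpl4), chr7:3703791-3704090 (plus strand, Rps9) and chr11:98026674-98026973 (plus strand, Rpl19).
Rps24: gcgctggggtCCTTCCTTgcgcgttgatat
Rpl4: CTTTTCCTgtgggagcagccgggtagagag
Rps9: gccttgtCTCTCTTTgtctcgggcctgagt
Rpl19: gCTCTCCCCTTCgcagataatgggcggagc
Within the bases shown, the tract begins 2 bases before the annotated start in Rps24, 5 before in Rps9 and 11 before in Rpl19. In Rpl4 it already holds the first base shown, 12 before the start. Bases further upstream were not searched for its beginning. These matches describe letters only.

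Values are FPKM, that is, fragment numbers divided by gene length and by library depth. The length of all exons of a gene together, used here to recover depth, exceeds that of a coding transcript unequally. It was 6256 against 1613 bases in Rps24 and 2691 against 589 in Rps13, but 499 in both for Rplp1. Levels set side by side between genes therefore depend on the length used. Depth, recovered from the steps between low values, was 14530000 to 17390000 fragments in the 6 WT and HET libraries. The HOM libraries list 1137 genes and none of the ribosomal protein genes, which were not analysed here in HOM. Pou4f3 was 25.5 ± 1.31 FPKM (SD, n = 3) in WT, 23.8 ± 1.94 (n = 3) in HET and 5.56 ± 4.03 (n = 3) in HOM. The tissue label was borne out by supporting cell markers such as Tectb, at 1288 to 1907 FPKM, and by the hair cell markers, of which all 12 passed the filter of at least 1 FPKM in at least 3 of the 6 libraries. WT 3 and HET 1 stood apart from the other 4: the first principal component (58.13% of the variance over the genes tested) was 27.39 in WT 3 and 32.73 in HET 1 and between -22.36 and -4.35 in the others. Results that rest on these libraries are therefore also given without them.

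Of the 86 ribosomal protein genes, 83 passed the filter. The 86 levels had a median of 97.8 FPKM over the 6 libraries, with the middle 50% between 29.6 and 249.99. The small subunit genes had a median of 112.68 FPKM and the large subunit genes one of 77.7. All 34 small subunit genes passed the filter but 49 of the 52 large subunit genes did, so genes below it enter only the large subunit median. The highest was Rplp1, at 1426 FPKM, which encodes a protein of the ribosomal stalk, the lateral arm of the large subunit that recruits translation factors. It was followed by Rpl8 at 927, the stalk base protein Rplp0 at 923, Rps15 at 918, Rps3a1 at 861, Rps24 at 804, Rpl41, the shortest ribosomal protein, at 677 and Rpl4 at 625. Rplp2, the partner of Rplp1 in the stalk, was at 148 FPKM. At the other end Rps13 was at 3.53 FPKM, so the tested genes spanned 404.1-fold in FPKM, a span that depends on the gene lengths used. Rps6, the substrate of the S6 kinases, was at 12.6, 13.5 and 15.6 FPKM in WT and 19.5, 12.9 and 12.6 in HET, and its copies summed to 43.6 on average. Rpl5 and Rpl11, which enter the ribosome together with an rRNA and bind Mdm2 when free, were at 14.7 ± 0.305 FPKM (Rpl5) and 73.0 ± 5.76 (Rpl11) in WT (SD, n = 3). Over the 6 libraries Rpl5 with its copies came to 80.7 FPKM, of which its copy Gm15500 made 65.2, and Rpl11 with its copies to 97.9. Rps19, the gene most often mutated in Diamond-Blackfan anaemia, was at 49.3 ± 7.15 FPKM in WT (n = 3) and 55.4 ± 5.53 in HET (n = 3). Rpsa, whose product is also known as the laminin receptor precursor, was at 251.6 ± 18.3 (n = 3) and 250.7 ± 60.7 (n = 3).

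Most genes with low levels had copies, as did most of the 86. Each transcript was divided into words of 75 bases, and a copy was counted where another listed gene held at least 10% of the words in sense. By this count 66 of the 86 genes had at least 1 copy. There were 264 copies, 250 of them annotated as pseudogenes, 140 at 1 FPKM or more and 18 at 0 in all 6 libraries. The median gene had 64.08% of its words in no other gene. Rps3 was among the 5 whose words were all their own, at 145 FPKM.

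Of the 15 tested genes under 20 FPKM, 14 had copies that summed to more than the gene itself, and of the 13 genes at 500 FPKM or more, none had. Over all 86 genes it was 32. A low level of the gene itself makes this outcome more likely, so these counts do not tie low levels to copies. Rps29 was at 6.02 FPKM while its copy Gm14303 was at 119. Rpl12 was at 9.96 and its copy Gm10275 at 136. Rps27 was at 4.04 FPKM and Rps27rt, an intronless gene that holds 98.52% of its words and is itself counted among the 86, was at 117. The median level was 59.8 FPKM in the 16 genes with under 25% of words unique, 101 in the 42 between and 127 in the 28 with at least 75%. Across the 83 genes tested, which are not independent replicates, Spearman's rho between level and unique share was 0.272 for the gene alone and 0.089 for the gene plus its copies. Copies only raise a level, and only genes with shared words have them. The lower rho of the sum therefore does not tie low levels to copies either. Between the level of the gene alone and its exon length, rho was -0.261. The labels state neither the read length nor the treatment of reads with several matches, and whether reads passed between gene and copy was not tested.

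**Figure D1:**
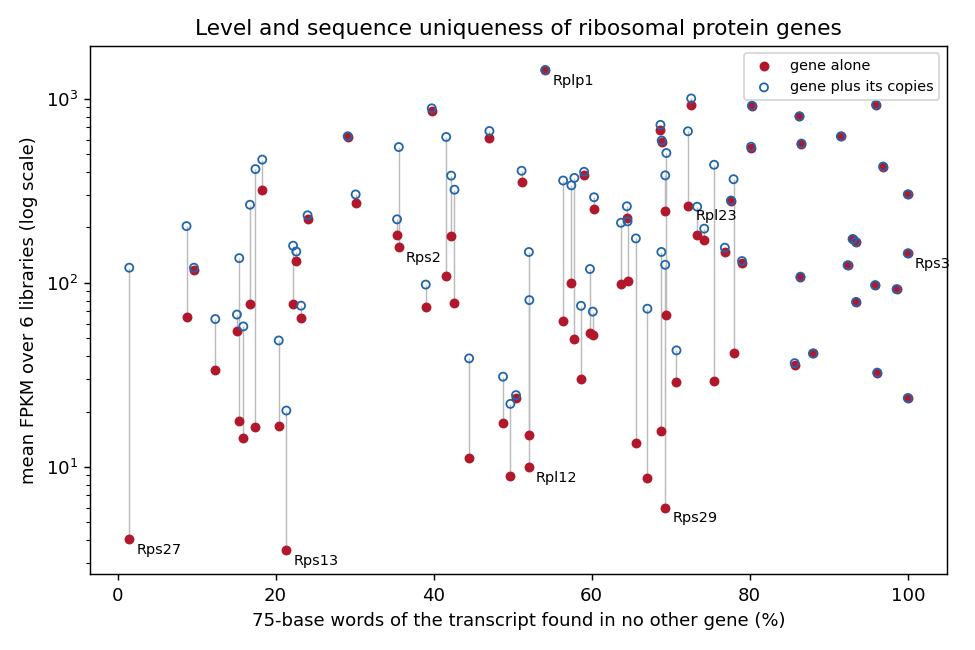
Mean FPKM over the 6 WT and HET libraries (log axis) against the percent of 75-base words found in no other gene, for the 83 ribosomal protein genes tested. Filled points are the gene alone, open points the gene plus its copies, and a grey line joins the values of 1 gene. The lowest filled points are Rps13 at 3.53 and Rps27 at 4.04 FPKM, with open points at 20.3 and 121. Adding copies can only raise a point.

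In 6 genes the level varied far more between libraries than in the rest: Rps2, Rpl29, Rps18, Rpl30, Rpl3 and Rpl35a had the largest SD of log2(FPKM + 1). Their coefficients of variation over the 6 libraries were 44.0% to 79.3%, and no other gene tested exceeded 40%. The median was 18.19%. With the FPKM of copies added to each gene, no gene exceeded 40% and the median was 17.55%. In some genes outside the 6 the coefficient rose, as in Rps7 from 10.4% to 23.0% and in Rps12 from 13.5% to 25.4%. Such a sum adds values that were each scaled to another gene length. Adding larger and steadier values lowers the coefficient whatever their source, and the 6 genes were picked for their spread.

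Rps18, a protein of the head of the small subunit, was at 136, 98.6 and 5.63 FPKM in WT 1, 2 and 3 and at 4.82, 121 and 94.1 in HET 1, 2 and 3. Its copy Gm11361 was at 16.1, 36.1 and 99.5 FPKM in WT and at 117, 33.1 and 41.1 in HET. Rps18-ps3 was at 8.25, 15.1 and 42.6 in WT and at 47.6, 17.1 and 22.3 in HET. The gene was low in WT 3 and HET 1, where both copies were at their highest. Gene and copies summed to 160.0, 149.7 and 147.8 FPKM in WT and 169.1, 171.2 and 157.5 in HET, a coefficient of variation of 6.07% against 74.8% for Rps18 alone. In fragments, Rps18 had 209 in WT 3 and 192 in HET 1 and at least 3510 in each other library.

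Rps2, which lines the mRNA entry of the small subunit, showed the same libraries low: 299, 218 and 3.54 FPKM in WT and 3.95, 231 and 184 in HET. Its copy Rps2-ps10 was at 77.8, 157 and 409 FPKM in WT and 411, 129 and 182 in HET. Rps2-ps13 was at 81.6, 110 and 227 in WT and 286, 71.8 and 94.5 in HET. Both copies were highest in WT 3 and HET 1. The sum over Rps2 and its 21 copies had a coefficient of variation of 19.6%, against 79.3% for the gene alone. Other ribosomal protein genes of chromosome 17 were not low in these libraries: Rpl36 was at 698 FPKM in WT 3 and 848 in HET 1, its highest values.

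Rpl29, a small protein of the large subunit, was at 98.1 FPKM in WT 1 but at 2.01 and 2.05 in WT 2 and WT 3, and at 115, 103 and 150 in HET. WT 2 and WT 3 were thus low and the other 4 libraries high. Its copy Gm13841 was at 119, 194 and 178 FPKM in WT and 181, 112 and 112 in HET. Gm8210 was at 72.9, 98.4 and 119 in WT and 100, 46.5 and 33.8 in HET. A copy that followed the gene was Gm10709, at 14.4, 0.43 and 0.41 FPKM in WT and 12.5, 18.4 and 22.5 in HET. Rpl29 and its 14 copies summed to 307.0, 298.0 and 304.0 FPKM in WT and 412.3, 281.9 and 322.1 in HET, and these sums overlapped between the groups.

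Rpl3, close to the peptidyl transferase centre, was at 115, 37.7 and 80.9 FPKM in WT and 119, 52.3 and 58.2 in HET. Rpl3-ps1 was at 76.7, 240 and 196 in WT and 146, 225 and 234 in HET, lowest in the 2 libraries where Rpl3 was highest. Rpl30 was at 47.2, 16.8 and 7.86 FPKM in WT and 30.4, 32.0 and 42.2 in HET, and its copy Gm12191 at 235, 466 and 576 in WT and 560, 327 and 265 in HET. Gm12191 holds 24.51% of the words of Rpl30, so with a minimum of 25% Rpl30 has no copy and its coefficient of variation stays at 50.7%. Rpl35a was at 18.2, 31.0 and 59.6 FPKM in WT and 30.8, 24.3 and 17 in HET, high in WT 3 alone. Its copy Gm10243 was at 18.2, 20.6 and 16.9 in WT and 29.98, 29.5 and 27.8 in HET. The part of read assignment, or of differences between the animals, in these patterns was not tested.

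**Figure D2:**
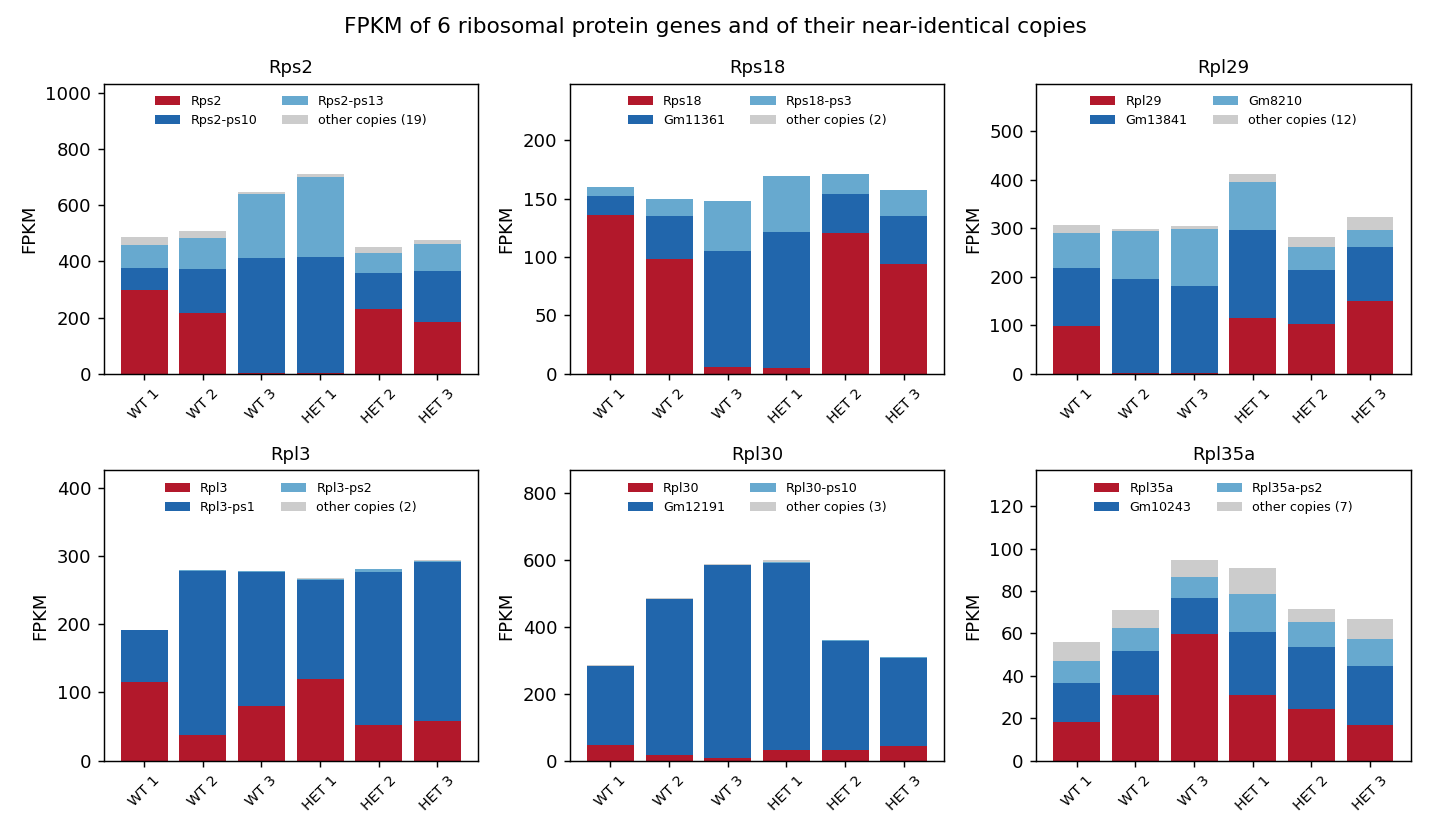
FPKM in each WT and HET library (bars from 0) of 6 ribosomal protein genes in red, of their highest copies in blue and of all other copies in grey, stacked. Rps18 stands at 98.6 FPKM or more in WT 1 and WT 2 and at 5.63 in WT 3, while the stack lies between 147.8 and 171.2 in all 6 libraries.

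Most ribosomal protein genes were high in the same libraries, 1 of each group. Their summed level was 16479, 16695 and 18765 FPKM in WT and 22819, 15821 and 15637 in HET, or 5.71% to 7.30% of all FPKM. HET 1 was the highest library and WT 3 was next, and the groups overlapped. The total FPKM of all genes was also highest in HET 1 (312688) and WT 3 (304990), against 273016 to 283674 in the other 4 libraries. As a share of that total, the ribosomal protein genes made 7.30% in HET 1 and 6.15% in WT 3. In the other 4 libraries they made 5.71% to 5.92%, so WT 3 stood out less by share than by sum. HET 1 was the highest of the 6 libraries for 75 of the 83 genes, against 25.47% of all 15391 genes tested. HET 1 and WT 3 were the highest of their own groups for 72 of 83 (86.75%), against 36.37% of all genes. The median gene was 1.297-fold its own mean in HET 1 and 1.093-fold in WT 3, and 0.899- to 0.958-fold in the other 4 libraries. The 11 genes outside this pattern were Rps2, Rps18, Rpl29, Rpl30 and Rpl3 from above, and Rpl27, Rpl34, Rps27, Rps23, Rpl5 and Rps7. Rps7 was lowest in WT 3, at 88.1 FPKM, against 105 to 121 in the other libraries.

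**Figure D3:**
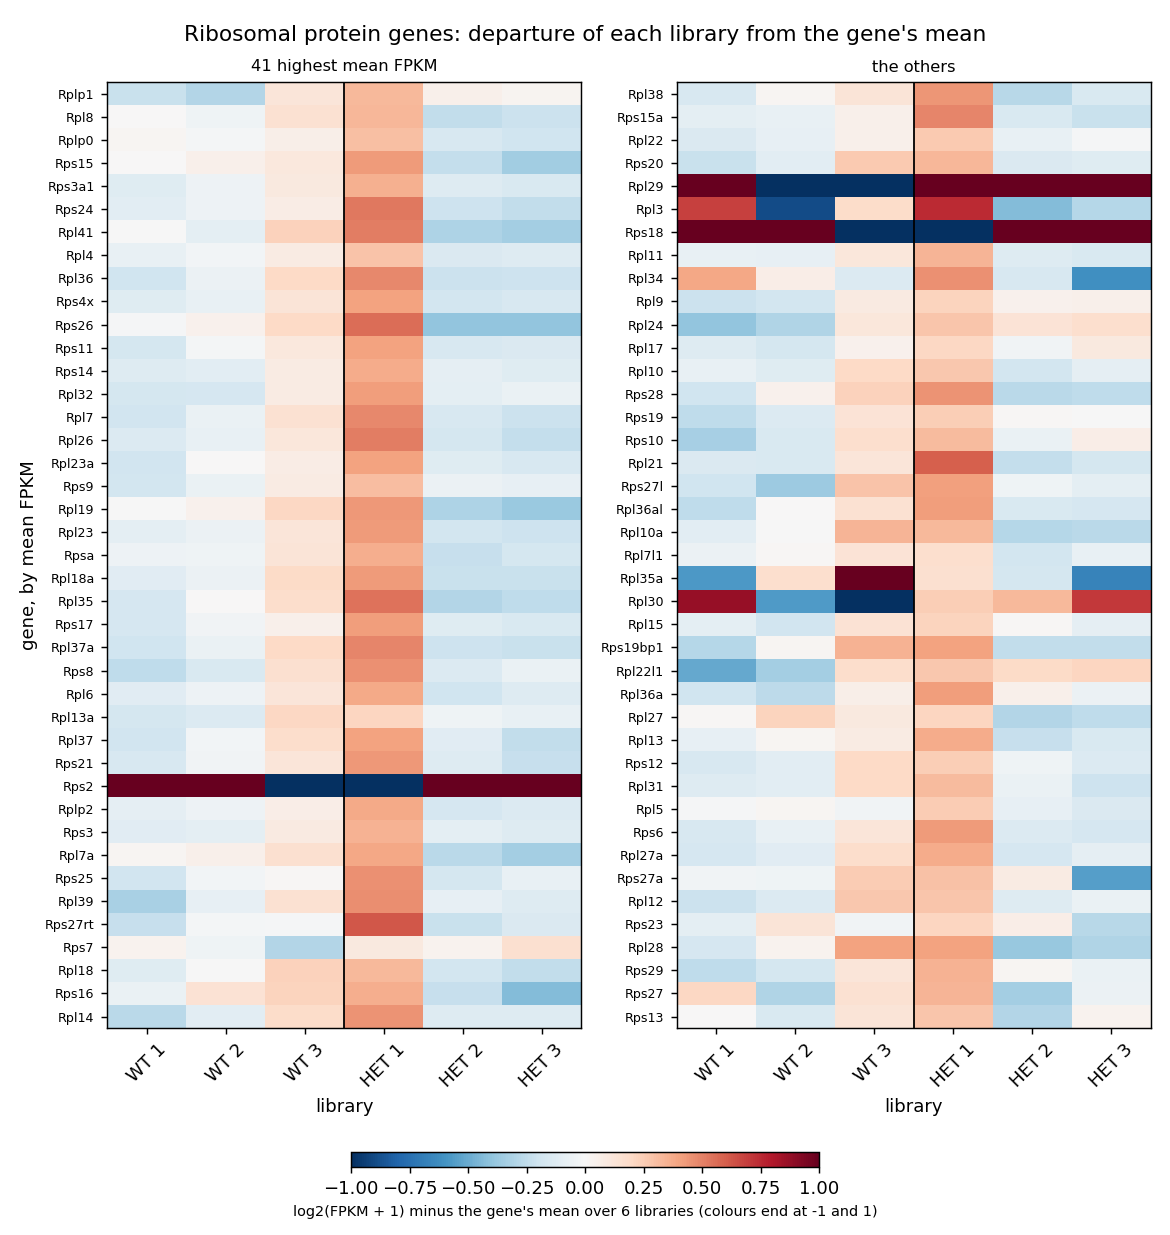
Departure of each library from a gene's mean over the 6 libraries, in log2(FPKM + 1), for the 83 ribosomal protein genes tested save 1 that is not drawn, ordered by mean FPKM from top left to bottom right. HET 1 is red for nearly all genes (highest in 75 of the 83, above the gene's mean in 81), but not for Rps2 and Rps18. Their rows and those of Rpl29, Rpl30, Rpl3 and Rpl35a vary most between libraries.

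Other gene lists showed the same libraries high. The 20 translation factors and other TOP genes, such as Eef1a1, departed from their means by a median of 0.27 on the log2(FPKM + 1) scale in HET 1 and by -0.15 to 0.08 in the other libraries. Eef1a1, the elongation factor that delivers tRNA, was at 3544, 3471 and 3529 FPKM in WT and 4162, 3270 and 3196 in HET. For 77 mitochondrial ribosomal protein genes the median departure was 0.23 in HET 1 and 0.14 in WT 3, and for the 13 mitochondrially encoded genes it was 0.43 and 0.37. The 26 ribosome biogenesis genes departed less, by 0.09 in each of these libraries. The 13 tested regulators of TOP translation and mTOR signalling stayed within -0.06 and 0.05.

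Further measures moved with the ribosomal protein genes. The length of all exons of a gene together was one. Of the 83 genes, 66 fall in the shortest of 4 equal classes of protein-coding genes by this length (27 to 2808 bases). The other genes of that class departed by a median of 0.18 in HET 1 and 0.14 in WT 3. The longest class departed by -0.15 and -0.10. Markers of some other cell types, but not of all, were the second. All 10 Schwann and satellite glia genes were detected, none at 0, with a summed level of 462 to 636 FPKM in WT and 358 to 688 in HET, and a median departure of 0.48 in HET 1 and 0.36 in WT 3. Spiral ganglion neuron genes, 9 of 10 tested, summed to 98.0 to 196 FPKM in WT and 105 to 172 in HET and departed by 0.41 and 0.48. Supporting cell genes departed by -0.16 in HET 1 and -0.06 in WT 3, and hair cell genes by -0.03 and 0.08. For mesenchyme and fibrocyte genes these values were 0.09 and 0.12, and for macrophage genes 0.07 and 0.14. Bone and osteoclast genes departed by -0.03 and -0.11, and erythroid genes by -0.002 and 0.36. The part of exon length and of cell composition in the levels of the ribosomal protein genes was not tested. In these bulk samples fewer cells of a type and less RNA per cell cannot be told apart.

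**Figure D4:**
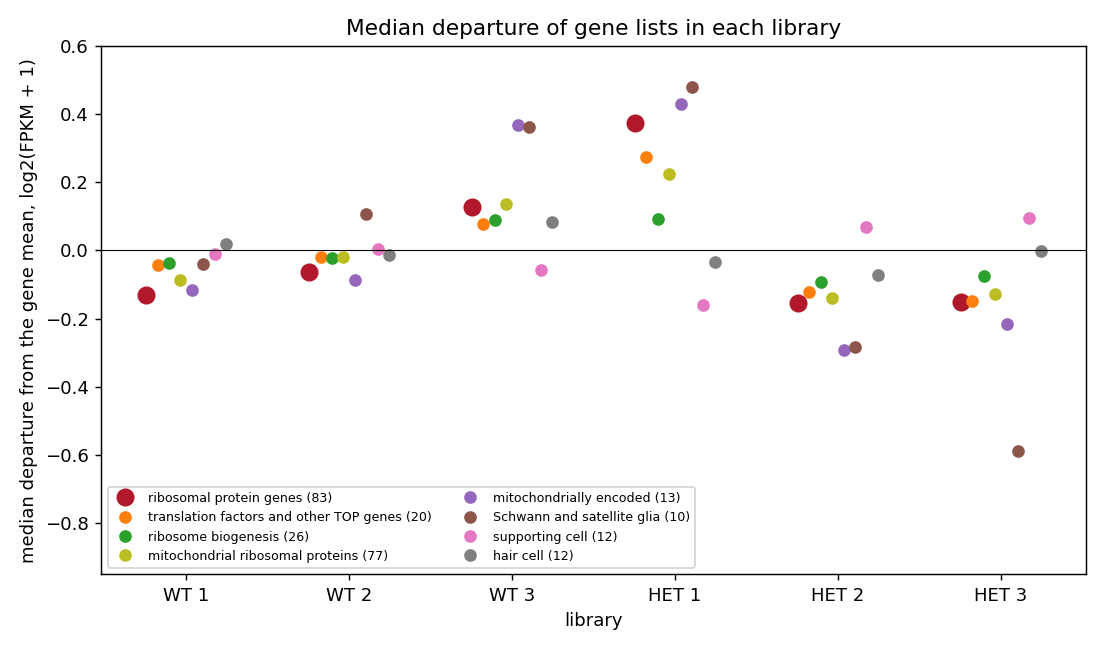
Median departure from the gene means, in log2(FPKM + 1), of the 83 ribosomal protein genes (large red points) and of 7 other lists in each library, with the number of genes tested in brackets. The ribosomal protein genes lie at 0.38 in HET 1 and 0.13 in WT 3 and below 0 in the other 4 libraries, as do the mitochondrially encoded genes (0.43 and 0.37).

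The comparison the series names is HET against WT, that is, what the loss of 1 Pou4f3 allele changes in the cochlea. No ribosomal protein gene passed the test. With limma on log2(FPKM + 1) and Benjamini-Hochberg adjustment over 15391 genes, 0 genes (0.0%) were under an adjusted p of 0.05, and 266 (1.73%) were under an unadjusted p of 0.05. Of the 83 ribosomal protein genes 3 (3.61%) were under an unadjusted p of 0.05, all higher in HET, and the adjusted p of each was 1.0. The 3 libraries of HET lay apart from the 3 of WT in the same 3 genes (3.61%), against 914 of all genes (5.94%). The median change was 0.04 on the log2(FPKM + 1) scale, with 57 genes above 0 and 26 below, against 0.00 over all genes. It was 0.035 in the 49 tested large subunit genes and 0.052 in the 34 small subunit genes. Without HET 1 the median was -0.13, and without HET 2 it was 0.14. The summed level was 17313 ± 1262 FPKM in WT (SD, n = 3) and 18092 ± 4094 in HET (n = 3), a ratio of 1.045 that became 0.909 without HET 1.

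**Figure D5:**
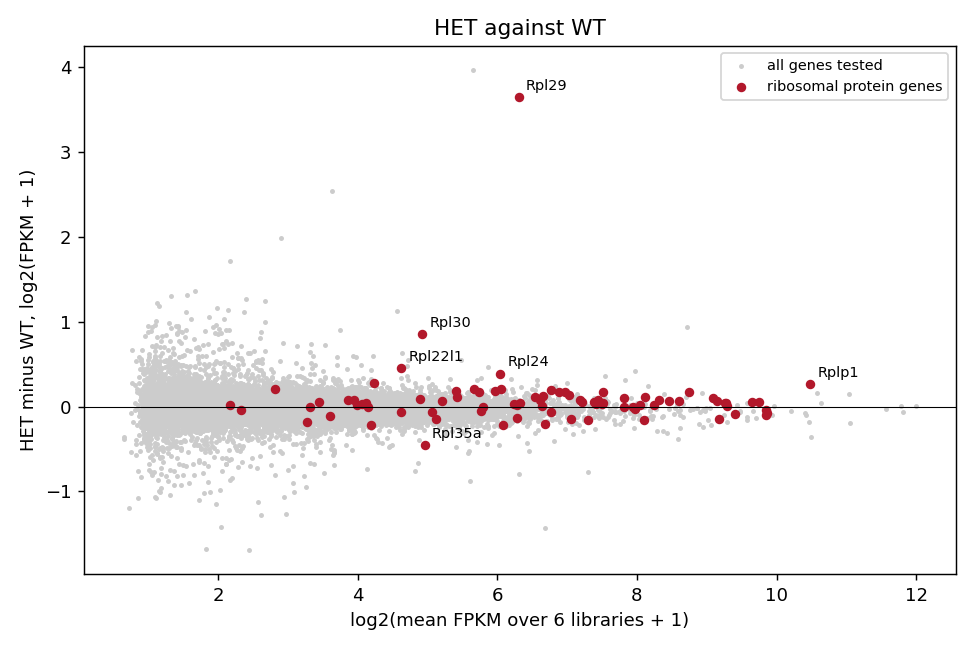
Change from WT to HET in log2(FPKM + 1) against the log2 of mean FPKM + 1 over the 6 libraries, for all 15391 genes tested (grey) and the 83 ribosomal protein genes (red). Most ribosomal protein genes lie near 0, with Rpl29 at 3.65 and Rpl30 at 0.85 above and Rpl35a at -0.45 below; none passed limma's adjusted threshold.

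The 3 genes whose groups lay apart were Rpl29, Rpl24 and Rpl22l1. For Rpl29 the change was 3.65 ± 1.32 (SE) on the log2(FPKM + 1) scale, with an unadjusted p of 0.0297 in limma, and it rested on the low values of WT 2 and WT 3 described above. Without WT 1 the change was 5.33 and passed the threshold, with an adjusted p of 0.00287 in limma, the only such call of a ribosomal protein gene when 1 library was left out; in the other fits its adjusted p was 0.417 to 1.0.

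Rpl24 (chromosome 16, 55966275 to 55971435), a large subunit protein that reaches across to the small subunit, was at 48.3, 51.7 and 69.1 FPKM in WT and at 77.7, 70.3 and 71.8 in HET. WT 3, the highest of WT, lay just under the lowest of HET. The change was 0.39 ± 0.14 (SE, n = 3 per group), with an unadjusted p of 0.0315 in limma. Its copies summed to 10.4 FPKM, and with them the WT values were 56.7, 60.7 and 81.5 and the HET values 91.2, 80.4 and 80.8, so the groups then overlapped.

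Rpl22l1 (chromosome 3, 28805436 to 28807424) is the paralogue of Rpl22, and loss of Rpl22 is known to raise it. It was at 15.9, 18.02 and 26.3 FPKM in WT and 28.0, 26.6 and 27.0 in HET, so that WT 3 again lay next to the HET values. With its copy, at 0.932 FPKM, WT 3 came to 28.2 and HET 2 and HET 3 to 27.3 and 27.9, and the groups overlapped. The change was 0.45 ± 0.18 (SE, n = 3 per group), with an unadjusted p of 0.0391 in limma. Rpl22 itself was at 83.0, 87.1 and 95.5 FPKM in WT and 111, 87.4 and 91.3 in HET. Rpl22l1 amounted to 19.2%, 20.7% and 27.6% of Rpl22 in WT and 25.3%, 30.4% and 29.5% in HET, and these shares overlapped.

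Among the other genes with the highest changes, Rpl30 stood at 0.85 ± 0.57 (SE), and Rpl36a, Rplp1, Rps10 and Rpl9 at 0.21 to 0.27. Rplp1 was at 1207, 1152 and 1537 FPKM in WT and 1766, 1461 and 1437 in HET, where WT 3 lay above HET 2 and HET 3. The lowest change was that of Rpl35a, -0.45 ± 0.42 (SE), and Rpl27, Rpl34, Rps16, Rpl28, Rps2, Rpl19 and Rpl10a followed at -0.22 to -0.15. Rpl27 was at 17.2, 20.1 and 18.4 FPKM in WT and 20.03, 13.8 and 14.2 in HET. In Rps2 the sign of the change itself turned with the libraries, from -2.10 without WT 3 to 1.63 without HET 1.

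With both HET 1 and WT 3 left out, 2 libraries remained in each group. No gene passed the adjusted threshold, and 2447 of all genes (15.9%) were under an unadjusted p of 0.05 in limma. Of the 83 ribosomal protein genes 26 (31.3%) were, 9 higher and 17 lower in HET, and the median change was -0.06. Rpl22l1 (0.63) and Rpl24 (0.50) were again higher in HET, both with an adjusted p of 0.153 in limma. Rplp1 was higher by 0.30, with an adjusted p of 0.18 in limma. Rps26, which lies at the mRNA exit of the small subunit, was at 560 and 581 FPKM in WT 1 and WT 2 and at 430 and 428 in HET 2 and HET 3. Its change in this fit was -0.41, with an adjusted p of 0.154 in limma, and that of Rpl19 was -0.36, with an adjusted p of 0.165 in limma. With all 6 libraries the groups overlapped in Rps26, since HET 1 was at 833 FPKM, its highest value.

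Several ribosomal protein genes have a related second gene, and some of these second genes are forms of particular tissues. The muscle form Rpl3l was at 0.04 to 0.20 FPKM against 77.2 for Rpl3. The form Rpl39l, known from testis, was at 0.07 to 0.37 against 125 for Rpl39. Rpl10l, an autosomal retrogene active in male germ cells, was at 0 in all 6 libraries, where a count of 0 allows up to 0.202 FPKM (3 fragments, counting error only), against 54.7 for the X-linked Rpl10. These 3 were the genes that did not pass the filter. Other second genes were well detected. Rpl36al, the autosomal relative of the X-linked Rpl36a, was at 36.0 FPKM against 17.8. With copies the order turned: Rpl36a came to 136.4 FPKM, of which its copy Rpl36a-ps2 made 116.9, and Rpl36al to 36.7. Rps27l, a p53 target, was at 41.4 against 4.04 for Rps27, whose own level has the copy named above. Rpl7l1 was at 32.6 against 387 for Rpl7. Rps4x, the X-linked form, was at 615 FPKM.

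In the wider translation machinery no gene of any list passed the threshold in HET against WT. The median change was 0.00 for the 20 translation factors and TOP genes, -0.03 for the 26 ribosome biogenesis genes (7 above 0 and 19 below), 0.00 for the 13 regulators of TOP translation and mTOR signalling, and -0.01 for the 77 mitochondrial ribosomal protein genes. Rack1, a scaffold on the small subunit that lies outside the symbol rule, was at 163 ± 15.2 FPKM in WT (SD, n = 3) and 161 ± 31.1 in HET (n = 3). Larp1, the TOP mRNA-binding protein, was at 24.9, 26.3 and 25.01 FPKM in WT and 24.3, 24.2 and 24.4 in HET. The 9 tested genes of the p53 response, which is known to follow ribosomal protein shortage, had a median of -0.05. Cdkn1a among them was at 31.3 ± 2.43 FPKM in WT (n = 3) and 28.1 ± 2.58 in HET (n = 3).

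Among cell type lists the median changes in HET against WT were -0.02 for hair cell, 0.01 for supporting cell, 0.03 for spiral ganglion neuron, -0.22 for Schwann and satellite glia, -0.08 for mesenchyme and fibrocyte, -0.05 for macrophage and -0.07 for mitochondrially encoded genes. Bone and osteoclast genes (6 of 8 tested) had a median of -0.46. Their summed level was 33.85, 55.76 and 36.28 FPKM in WT and 33.92, 27.84 and 28.16 in HET. WT 2 thus stood out, and the sums of the groups overlapped. Erythroid genes (5 of 8 tested) had a median of -0.19, and of the 8 skeletal muscle genes only Mylpf was tested, at -0.02.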

How the data were processed

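RNA-seq of cochlear RNA gave 9 libraries, 3 each of WT, HET and HOM. The deposited values are FPKM with 2 decimals, calculated by the authors. The submitters' processing notes name DESeq2 and mm8; the aligner, the counter and the gene models behind the values are not stated there, and per the labels the RNA was either poly(A) selected or rRNA depleted. Identifiers were matched to GENCODE M21 (51719 of 51912). The 15391 genes that reached 1 FPKM in 3 or more WT and HET libraries were tested on log2(FPKM + 1) with limma 3.58.1 (R 4.3.3, mean-variance trend, two-sided, Benjamini-Hochberg, threshold 0.05). The fit was tested on simulated data with independent noise for each gene and library. These lack the difference that WT 3 and HET 1 share, so they do not show how the fit handles it. Depth was recovered from the FPKM steps; 99.26% to 99.79% of low values were then whole fragments within 0.1.

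FPKM divides by gene length and depth. How reads that match several genes were assigned is not stated, and fold changes on log2(FPKM + 1) are understated at low levels. Replicate numbers did not pair the libraries: deviations of same-numbered WT and HET libraries correlated at -0.519, 0.286 and -0.471 across genes.

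The genes described, the lists and the tests were chosen with earlier results of these data known. Named were the ribosomal protein genes past the threshold (0), the 8 highest and 8 lowest changes, the 8 highest levels, the 6 largest SDs, paralogue pairs, the stalk proteins, Rpsa, Rps6, Rps19, Rpl5 and Rpl11, and up to 3 genes per list. Others (Rps13, Rps29, Rpl12, Rps3, Rps7, Rps18's and the other copies, Rps26, Rps9, Rps27rt, Rpl36, Rps19bp1) were chosen after their values were seen. A few single-gene values are not reported here. Alternatives covered pseudocount, filter, scaling, trend, the replicate block and libraries left out. The definitions of words and copies, and their alternatives, were chosen after seeing the data.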

Additional observations from a re-analysis of the deposited data

How the results depend on the processing

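With 1 library left out at a time, the number of genes past limma's threshold ranged from 0 to 1, with 1 gene without WT 1 (Rpl29) and 1 without WT 2, and the number of ribosomal protein genes past it ranged from 0 to 1; the cause was not tested. The change of Rps2 ranged from -2.10 to 1.63 and was above 0 without WT 1 (0.92), WT 2 (0.69) or HET 1 (1.63). That of Rpl34 ranged from -0.49 to 0.043, the highest value without HET 3. The median change of the ribosomal protein genes ranged from -0.13 to 0.14 and their summed ratio from 0.909 to 1.116. Of all other recomputed results, 203 kept their direction and their side of the threshold or stayed within the replicate spread. The replicate block left 0 calls and the median at 0.04, and it changed no call of a named gene. Pseudocount 0.1, no filter, median-ratio or upper-quartile scaling and no trend gave medians of 0.04 to 0.05 and no call. With words of 50 or 100 bases, chosen after seeing the data, the median unique share was 57.52% and 68.96%. With a copy minimum of 25%, the coefficients of variation of the sums were 6.05% (Rps18), 14.6% (Rpl29) and 20.3% (Rps2). Depth limits the rarest genes: 3 fragments of Rpl10l would have stood at up to 0.202 FPKM.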
